A study of Arabidopsis thaliana with 4 samples.

Results

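TAS4 is a non-coding RNA gene of Arabidopsis thaliana (AT3G25795, chromosome 3) whose transcript is turned into trans-acting small interfering RNAs (siRNAs). It was followed here together with the microRNAs (miRNAs) miR828 and miR858. The members were chosen by name and not by a cut on their values, though earlier results of these data were known. They are the TAS4 row among 38194 rows of the gene table, and the 3 rows whose name holds miR828 or miR858 (ath-miR828, ath-miR858a and ath-miR858b) among 349 rows of the miRNA table. Of these 4 rows TAS4 and miR858a carried reads in every library, miR828 carried 1 read in 1 library, and miR858b carried 0 reads in all 4.

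In textbook knowledge of Arabidopsis, miR828 guides ARGONAUTE1 to cut the TAS4 transcript. RDR6 with SGS3 then copies the cut RNA into a double strand and DCL4 dices it into siRNAs in phase with the cut. An siRNA of TAS4 targets transcripts of MYB75 (PAP1), MYB90 (PAP2) and MYB113, R2R3-MYB factors that switch on anthocyanin synthesis, and miR828 itself targets MYB113. miR858a targets transcripts of other R2R3-MYB factors, among them MYB11, MYB12 and MYB111, which drive flavonol synthesis.

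The samples were seedlings harvested 10 days after germination, 2 libraries of the rpt2a mutant combined with PORI (PORI rpt2a) and 2 libraries of PORI, which the labels call the control. Both groups thus carry PORI. Its meaning and the rpt2a allele are not given in the labels, nor is the number of seedlings pooled per library. RPT2a is an ATPase subunit of the proteasome's regulatory particle, and the study's question was its part in post-transcriptional silencing. Nothing in the labels says that replicates were grown separately, and every p-value here speaks of the scatter among 4 libraries, part of which may be technical.

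Small RNA reads were counted by length, from 18 to 26 nt, in 3 tables per library, for miRNAs, genes and transposable elements (TEs). The tables summed to 5884528 and 3241463 counts in PORI rpt2a replicates 1 and 2, and to 5806942 and 4809644 in PORI replicates 1 and 2. RPT2a itself (AT4G29040) had 38 and 8 small RNA counts in PORI rpt2a and 27 and 21 in PORI. Such reads are not its mRNA and do not check the genotype. PORI rpt2a replicate 2 stood apart. Its log2 CPM correlated with those of the other libraries at 0.730 to 0.845 over genes and 0.862 to 0.880 over miRNAs, while the other libraries correlated with each other at 0.843 to 0.929 and 0.962 to 0.975. Results that rest on it are therefore given with and without it.

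miR828, the trigger of TAS4 siRNA production, was at the limit of detection. Its row held 1 read, of 22 nt, in PORI rpt2a replicate 1 and 0 in PORI rpt2a replicate 2, against 0 and 0 in PORI. The MIR828 gene row (AT4G27765, chromosome 4) held the same single read. A count of 0, which allows up to 3 counts, limits miR828 to 23.8 CPM (counts scaled to the library's miRNA table) in PORI rpt2a replicate 2, and to 7.58 and 10.3 in PORI replicates 1 and 2. With every library at or under 3 counts, a difference between genotypes was not detectable at this depth. TAS4 had 823 and 128 reads in the same PORI rpt2a libraries and 874 and 562 in PORI, so reads assigned to the locus outnumbered those of its trigger in each library. Limits and intervals of this kind cover the error of counting alone. Without molecular identifiers a read is not an independent molecule.

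TAS4 reads were mainly 21 nt long in every library. The 21 nt share was 80.8% in PORI rpt2a replicate 1 (95% Wilson interval 78.0% to 83.3%) and 86.7% in replicate 2 (79.8% to 91.5%), against 81.4% (78.6% to 83.8%) and 82.7% (79.4% to 85.6%) in PORI. The groups overlapped, at 83.8% ± 4.18 in PORI rpt2a and 82.0% ± 0.983 in PORI (SD, n = 2 each; exact two-sided permutation p = 1). The smallest p that 2 against 2 libraries can give is 0.333. Pooled over the libraries 81.8% of 2387 TAS4 reads were 21 nt, 13.3% were 22 nt, 3.23% were 20 nt and 0.922% were 24 nt. Among 4324 gene rows with at least 100 counts the median 21 nt share was 7.68%, and 41 rows, TAS4 among them, were at or above the share of TAS4. Of those 41 rows 33 were MIR genes, which yield miRNAs of that length, and 3 were TAS loci, namely TAS1C, TAS1A and TAS4.

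**Figure D1:**
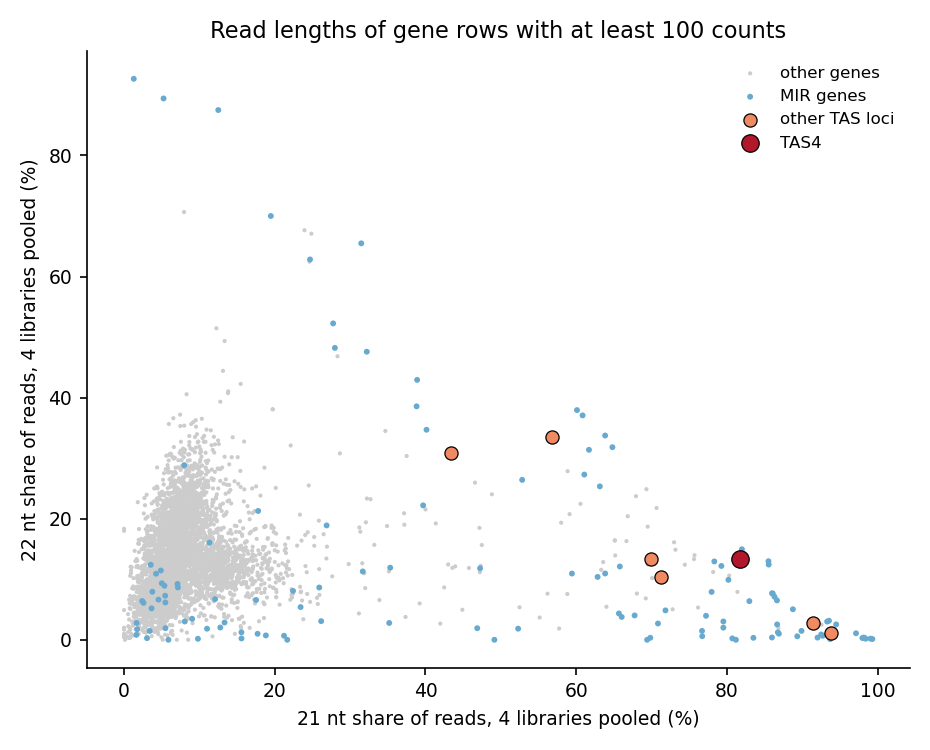
Each point is a gene row with at least 100 counts over the 4 libraries, placed by its 21 nt share (horizontal axis, percent) and 22 nt share (vertical axis, percent) of pooled reads. TAS4, at 81.8% and 13.3%, lies among MIR genes and between the other TAS loci drawn (TAS3C is not drawn, having 80 counts in all), while other genes gather near the median 21 nt share of 7.68%.

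The 22 nt share of TAS4 was lower in one mutant library than in the other 3. It was 14.0% in PORI rpt2a replicate 1 (115 of 823 reads; Wilson interval 11.8% to 16.5%) and 6.25% in replicate 2 (8 of 128; 3.20% to 11.8%), against 14.3% (125 of 874; 12.1% to 16.8%) and 12.5% (70 of 562; 9.98% to 15.4%) in PORI. The mutant libraries differed from each other by more than the PORI libraries did, and the group difference of -3.27 percentage points (exact permutation p = 0.667) turned to 0.594 without PORI rpt2a replicate 2. TAS4 carried 4 and 1 reads of 24 nt in PORI rpt2a and 8 and 9 in PORI. That is 0.486% and 0.781% of its reads in PORI rpt2a and 0.915% and 1.60% in PORI. The groups did not overlap, at the smallest p the design allows (exact permutation p = 0.333), and the Wilson intervals did, reaching 4.29% in PORI rpt2a replicate 2.

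**Figure D2:**
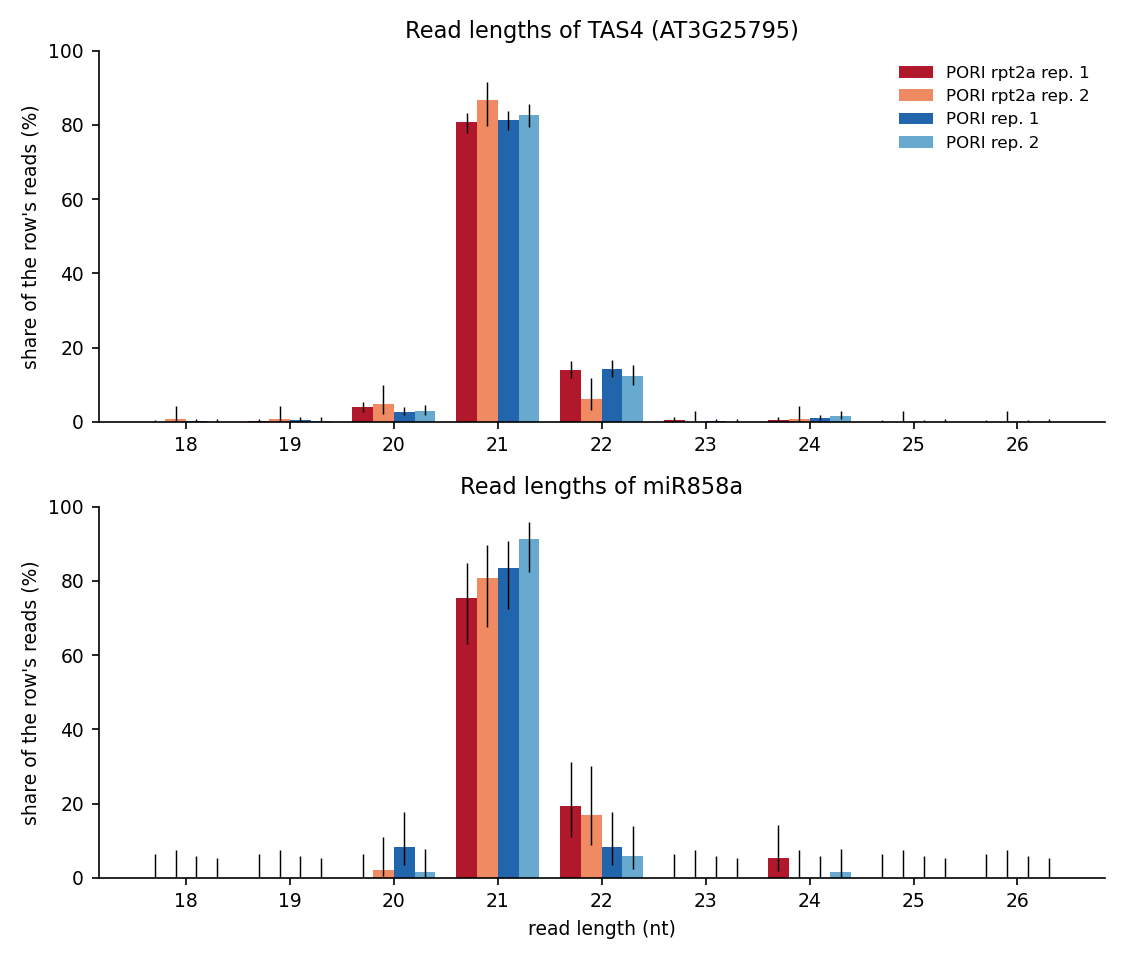
Bars give the share of a row's reads at each length from 18 to 26 nt in each library, for TAS4 (top) and miR858a (bottom); lines are 95% Wilson intervals. TAS4 has its peak at 21 nt in every library (80.8% to 86.7%), with the 22 nt bar of PORI rpt2a replicate 2 at 6.25%; in miR858a the 22 nt bars are 19.3% and 17.0% in PORI rpt2a and 8.20% and 5.80% in PORI.

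The reads of the TAS4 row came from a locus with few reads on either side. Of the genes next to it on chromosome 3, AT3G25790 had 0 counts in all 4 libraries, and PP2AA2 (AT3G25800), which encodes a subunit of protein phosphatase 2A, had 7 and 4 counts in PORI rpt2a and 7 and 5 in PORI. No other gene row held the same values as TAS4. Over the 9 read lengths, the genes nearest to TAS4 among 232 with 0.5 to 2 times its pooled count were AT1G63130 (RPF6, an RNA processing factor), AT1G63150, AT5G38850, AT1G62910 (RFL9) and MIR164c. Their distances, the sum of absolute differences in length shares divided by 2, ran from 0.0420 to 0.130. AT1G63130 had 80.3% of its reads at 21 nt and 10.6% at 22 nt, close to the profile of TAS4, whereas MIR164c had 86.8% at 21 nt and 1.23% at 22 nt.

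The level of TAS4 siRNAs was compared between genotypes by edgeR's quasi-likelihood test over the whole gene table. TAS4 was at 150 and 64.2 CPM (counts scaled by library size, TMM-normalised within the gene table) in PORI rpt2a, against 154 and 139 CPM in PORI. PORI rpt2a replicate 1 lay between the PORI libraries and replicate 2 below them, so the groups overlapped. TAS4 averaged 107 ± 60.9 CPM in PORI rpt2a and 146 ± 11.0 CPM in PORI (SD, n = 2 each), and its log2 fold change of -0.44 ± 0.46 (SE) did not pass (adjusted p = 0.609). In that fit 2 of 8110 genes were called, 0.0247%, with 1868 at an unadjusted p under 0.05, and DESeq2 called 7.26%. Without PORI rpt2a replicate 2 the TAS4 value was 0.050 (adjusted p = 0.914). Leaving out replicate 1 of that genotype gave -1.19 (adjusted p = 0.0149, with the single mutant library left assumed to vary like the controls), in a fit that called 2155 of 8110 genes, 26.6%. Had a lower level been shown, this design could not tell fewer cells that make TAS4 siRNAs from fewer such siRNAs per cell.

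Split by length, TAS4 lay lower in both mutant libraries on the scale of each length class. In 21 nt reads it was at 582 and 201 CPM in PORI rpt2a and at 909 and 734 CPM in PORI. These groups did not overlap, and the log2 fold change of -1.07 ± 0.61 (SE) did not pass (edgeR adjusted p = 0.249; 0 of 1414 genes called, 0%, with 479 at an unadjusted p under 0.05 and 12, or 0.849%, called by DESeq2). In 22 nt reads it was at 147 and 22.4 CPM in PORI rpt2a and at 307 and 230 CPM in PORI, a log2 fold change of -1.61 ± 0.74 (SE) that did not pass either (edgeR adjusted p = 0.171; 0 of 2001 genes called, 0%, with 680 at an unadjusted p under 0.05 and 115, or 5.75%, called by DESeq2). Leaving out PORI rpt2a replicate 2 gave -0.34 at 21 nt and -0.86 at 22 nt. With replicate 2 as the only mutant library the values were -2.07 (edgeR adjusted p = 0.00297) and -3.57 (edgeR adjusted p = 0.000193), which passed. In those fits calls were common, at 469 of 1414 genes (33.2%) for 21 nt and 609 of 2001 (30.4%) for 22 nt. The 24 nt reads of TAS4 were too few for the low-count filter, in a fit where edgeR called 0 of 4575 genes and DESeq2 2.64%. Of the tested genes, 20.3% at 21 nt and 13.2% at 22 nt had a lower log2 fold change than TAS4. All 7 TAS loci tested, TAS4 among them, were below 0 at both lengths. Their medians, -1.28 at 21 nt and -1.77 at 22 nt, were lower than the values of TAS4.

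The size of these differences depended on the scale. With the sum of the 3 tables as library size, TAS4 was at 140 and 39.5 RPM (reads scaled to that sum) in PORI rpt2a and at 151 and 117 RPM in PORI. Its 21 nt reads were then at 113 and 34.2 RPM in PORI rpt2a and at 122 and 96.7 in PORI, and its 22 nt reads at 19.5 and 2.47 in PORI rpt2a and at 21.5 and 14.6 in PORI. PORI rpt2a replicate 1 lay between the PORI libraries in all 3 cases, and replicate 2 below them. The log2 fold changes on this scale were -0.57 for all lengths, -0.57 for 21 nt and -0.67 for 22 nt. Over all tested genes the median log2 fold change shifted with this scaling, to -0.25 from -0.036 over all lengths, to 0.36 from -0.099 at 21 nt and to 0.90 from 0.031 at 22 nt.

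**Figure D3:**
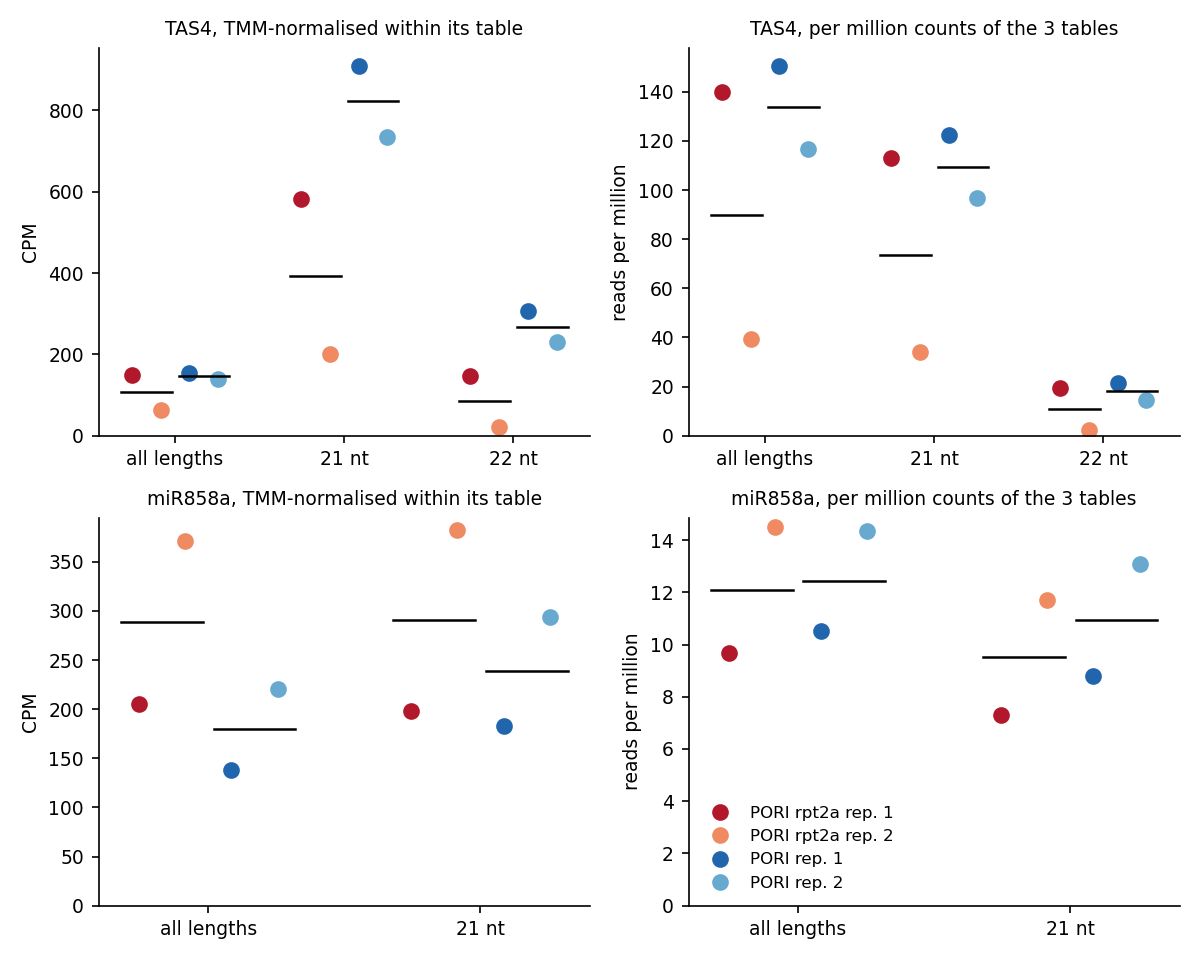
Points are libraries and black lines group means of TAS4 (top) and miR858a (bottom), as CPM normalised within a row's own table and length class (left) and as RPM, scaled to the sum of the 3 tables (right). On the right PORI rpt2a replicate 1 lies between the PORI libraries for TAS4 (140 against 117 and 151 for all lengths) and replicate 2 lies below them (39.5), while miR858a spans 9.69 to 14.5 in PORI rpt2a, with the PORI values inside that range.

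Among the 8 TAS loci, the other members being targets of miR173 (TAS1 and TAS2) and of miR390 (TAS3), TAS4 had one of the values closest to 0 over all lengths. All 8 log2 fold changes were below 0, with a median of -0.66 against -0.036 over all genes tested. None was called by edgeR or by DESeq2, with 0 and 1 of them at an unadjusted p under 0.05. Over all 8110 genes tested 1868 and 1340 were at such a p. TAS4 was the third from the top, after TAS1B at -0.37 and TAS3B at -0.38, and TAS1A was at -1.11. On the scale of the 3 tables TAS4 was the highest of the 8. TAS1C was at -0.66, TAS2 at -0.86, TAS3A at -0.67 and TAS3C at -0.95. Without PORI rpt2a replicate 2, TAS4 was the single TAS locus above 0, at 0.050, and the median of the 8 was -0.41. Without PORI rpt2a replicate 1 the median was -1.23, and 5 of the 8 loci were called, TAS1A, TAS1C, TAS2, TAS3A and TAS4, where 26.6% of all genes tested were called.

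Within the reads of all TAS loci TAS4 took a larger share in the mutant libraries, by 0.103 percentage points. It made up 0.685% (Wilson interval 0.640% to 0.733%) of 120161 TAS counts in PORI rpt2a replicate 1 and 0.624% (0.525% to 0.741%) of 20511 in replicate 2. In PORI it made up 0.544% (0.510% to 0.582%) of 160544 and 0.559% (0.514% to 0.607%) of 100597. The groups did not overlap, with means of 0.654% ± 0.0430 in PORI rpt2a and 0.552% ± 0.0101 in PORI (SD, n = 2 each), at the smallest p the design allows (exact permutation p = 0.333). The interval of PORI rpt2a replicate 2 overlapped those of both PORI libraries. The TAS loci together held 2.50% and 0.710% of gene counts in PORI rpt2a and 3.42% and 2.49% in PORI. Most of these reads were TAS1C, with 93201 and 16414 counts in PORI rpt2a and 118778 and 76658 in PORI. A larger share of TAS counts in both mutant libraries was thus not particular to TAS4, since TAS1C had it too. The share of TAS1A was smaller in both, with 13031 and 1783 counts in PORI rpt2a and 23129 and 12156 in PORI. TAS3B did not follow the total of the TAS loci, at 12.1 and 20.6 CPM in PORI rpt2a and 19.6 and 22.2 CPM in PORI.

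**Figure D4:**
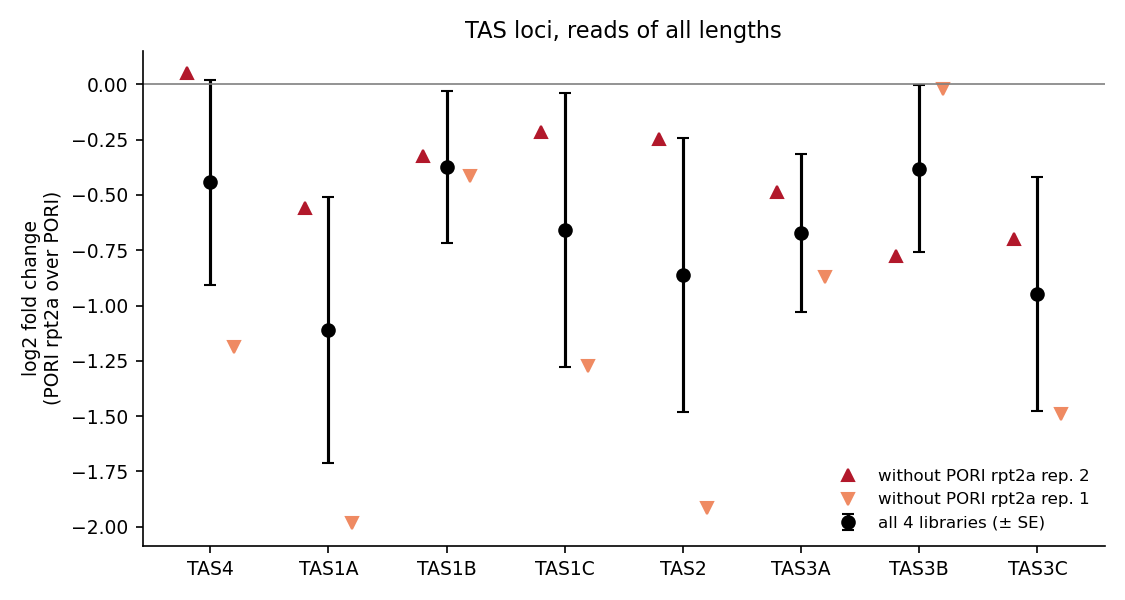
Log2 fold changes (PORI rpt2a over PORI) of reads of all lengths for each TAS locus, with all 4 libraries (black, ± SE), and with either mutant library left out. TAS4 moves between 0.050 and -1.19 with the library left out, and is above 0 only when replicate 2 is left out.

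The read lengths of TAS4 were set beside those of the other TAS loci within each library. Its 22 nt share exceeded that of the 7 others combined by 9.80 and 2.97 percentage points in PORI rpt2a and by 10.2 and 8.41 in PORI, higher in 4 of 4 libraries with a mean difference of 7.85 ± 3.35 (SD). Its 24 nt share was lower in 4 of 4 libraries, with a mean difference of -2.80 ± 1.03 percentage points (SD). The exact sign-flip test over 4 libraries gave p = 0.125 for each, the smallest it can give. The combined reads of the others are mostly those of TAS1C. Among the 6 loci with at least 100 counts in every library TAS4 had the third highest 21 nt share and the lowest 24 nt share in all 4 libraries. By 22 nt share TAS4 ranked 2 and 4 of the 6 in PORI rpt2a and 3 and 2 in PORI, near TAS1B, which had 13.7% and 7.99% in PORI rpt2a and 15.3% and 12.05% in PORI. TAS2 had the highest 22 nt share of the 6 in all 4, at 35.7% in PORI rpt2a replicate 2, for example, where TAS4 had 6.25%.

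miR858a, the member that targets flavonol MYB transcripts, had 57 and 47 reads in PORI rpt2a and 61 and 69 in PORI. Its normalised level within the miRNA table was 206 and 371 CPM in PORI rpt2a and 138 and 221 CPM in PORI. PORI rpt2a replicate 1 lay between the PORI libraries and replicate 2 above them. The means were 289 ± 117 CPM in PORI rpt2a and 180 ± 58.6 CPM in PORI (SD, n = 2 each), and the log2 fold change of 0.68 ± 0.79 (SE) did not pass (edgeR adjusted p = 0.870). In that fit 0 of 111 miRNAs were called, 0%, with 5 at an unadjusted p under 0.05 and 2, or 1.8%, called by DESeq2. In 21 nt reads alone miR858a was at 0.27 ± 0.73 (SE; edgeR adjusted p = 0.880), where 1 of 82 miRNAs was called, 1.22% (DESeq2 called 2.44%). Leaving out PORI rpt2a replicate 2 gave 0.21 over all lengths and -0.22 at 21 nt. Leaving out the other mutant library gave 1.06 (adjusted p = 0.155) and, at 21 nt, 1.46, which passed (edgeR adjusted p = 0.00378) in a fit that called 43 of 82 miRNAs, 52.4%. Without PORI replicate 1 the values were 0.46 over all lengths and -0.027 at 21 nt, and without PORI replicate 2 they were 1.25 and 0.65.

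The direction for miR858a depended on what the reads were scaled to. In RPM over the sum of the 3 tables it was at 9.69 and 14.5 in PORI rpt2a and at 10.5 and 14.3 in PORI, with the PORI values inside the mutant range, and the log2 fold change was -0.043. The miRNA table made up 5.68% and 3.89% of all counts in PORI rpt2a and 6.81% and 6.06% in PORI. Over all tested miRNAs the median shifted to -0.85 on that scale from -0.19. The MIR858a gene row (AT1G71002, chromosome 1) held nearly the same reads, 59 and 51 in PORI rpt2a and 65 and 71 in PORI, of which 96.6% and 92.2% in PORI rpt2a and 93.8% and 97.2% in PORI were in the mature row. Fitted within the gene table that row was at 0.29 ± 0.51 (SE; edgeR adjusted p = 0.766), and at -0.40 without PORI rpt2a replicate 2. miR858b, whose gene row (AT1G09213) also held 0 reads, is a close relative of miR858a, and how reads shared by such a pair were assigned is not given in the sources used here.

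In miR858a, reads of 22 nt made up a larger share of each mutant library than of each PORI library. Reads of 22 nt were 11 of 57 (19.3%; Wilson interval 11.1% to 31.3%) and 8 of 47 (17.0%; 8.89% to 30.1%) in PORI rpt2a, against 5 of 61 (8.20%; 3.55% to 17.8%) and 4 of 69 (5.80%; 2.28% to 14.0%) in PORI. The groups did not overlap and the intervals did. Reads of 21 nt made up 75.4% and 80.9% in PORI rpt2a and 83.6% and 91.3% in PORI, a difference of -9.31 percentage points at the smallest p the design allows (exact permutation p = 0.333). Over all miRNAs the 22 nt share was 4.78% and 10.4% in PORI rpt2a and 5.32% and 5.88% in PORI, and it was thus highest in PORI rpt2a replicate 2. The part of that library-wide share in the miR858a values was not tested.

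**Figure D5:**
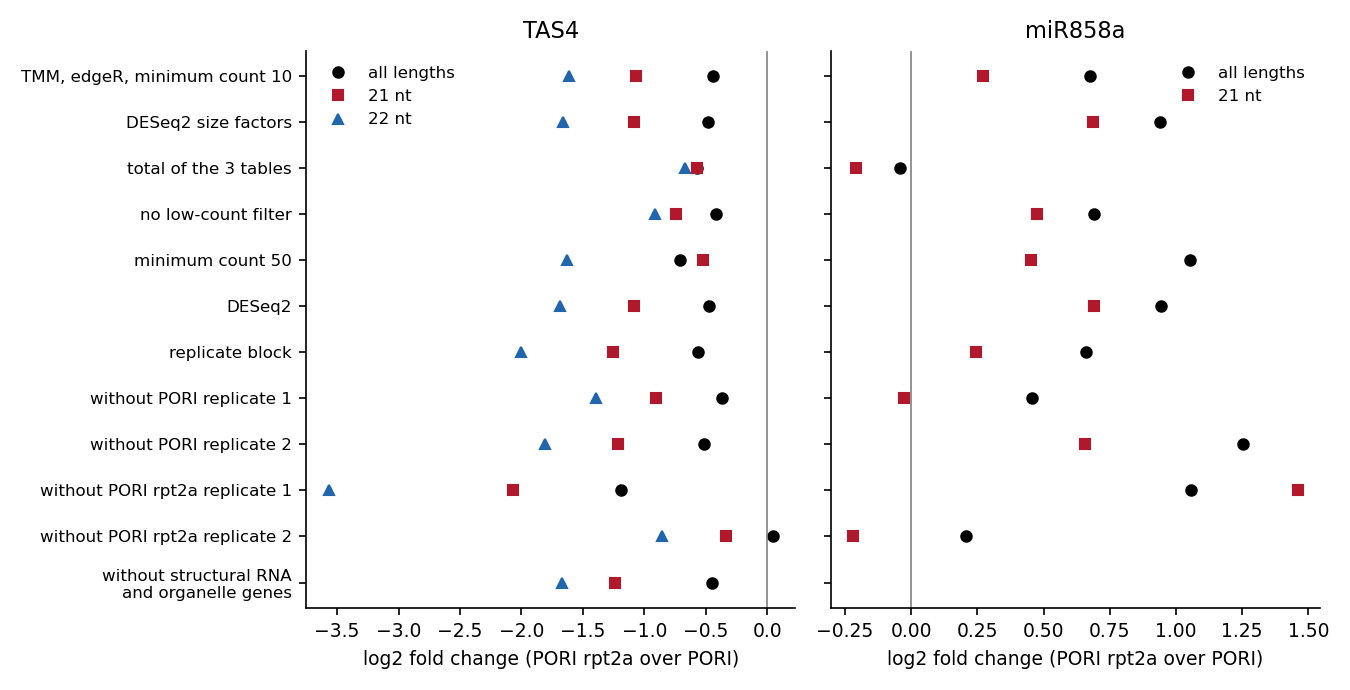
Log2 fold changes (PORI rpt2a over PORI, horizontal axis) of TAS4 (left; all lengths, 21 nt and 22 nt) and miR858a (right; all lengths and 21 nt) under each way of processing the counts (vertical axis). TAS4 is above 0 in 1 case, 0.050 over all lengths without PORI rpt2a replicate 2, whereas miR858a has values on either side of 0, at -0.043 when scaled to all counts.

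Small RNAs from the MYB transcripts that these regulators target were almost absent. Of 27 MYB genes listed as targets of miR828, TAS4 siRNAs or miR858, 10 had 0 counts, 26 had fewer than 10 counts in all, and 0 could be tested. Low counts were common among gene rows. Of all 38194 gene rows, 29232 were fitted without a low-count filter and 8110 with it. Whether the MYB list had fewer reads than other genes was not tested. Summed over the list there were 26 and 6 counts in PORI rpt2a and 27 and 27 in PORI. MYB75, the anthocyanin regulator targeted by a TAS4 siRNA, had 0 and 1 counts in PORI rpt2a and 3 and 3 in PORI, all 7 of them 21 nt long. MYB113 had 1 and 1 counts in PORI rpt2a and 0 and 1 in PORI, and MYB90 had 0 in every library, which allows up to 0.624 and 1.04 CPM of the gene table in PORI rpt2a and 0.639 and 0.743 in PORI. MYB11 had 1 and 0 counts in PORI rpt2a and 1 and 1 in PORI, MYB12 0 and 0 in PORI rpt2a and 0 and 1 in PORI, and MYB111 2 and 0 in PORI rpt2a and 3 and 3 in PORI. MYB121 was the most counted, with 9 and 2 in PORI rpt2a and 4 and 8 in PORI, of which 8 and 1 in PORI rpt2a and 3 and 6 in PORI were 24 nt. These are small RNA reads and give no mRNA levels.

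Of 11 genes of flavonoid and anthocyanin synthesis and its regulation 2 could be tested and 0 were called by edgeR. Among all 38194 gene rows, 8110 could be tested, so low counts are not particular to these genes. Of the 2 tested genes, TT8 alone was at an unadjusted p under 0.05, as were 1868 of all 8110 genes tested. TT8 (AT4G09820) encodes the bHLH factor that works with the anthocyanin MYB proteins. It had 6 and 4 counts in PORI rpt2a and 49 and 42 in PORI. With a log2 fold change of -2.73 ± 0.51 (SE) it missed the threshold (edgeR adjusted p = 0.0691). The groups did not overlap. Reads of 24 nt were 3 and 4 of these in PORI rpt2a and 30 and 20 in PORI, whereas TAS4 had 4 and 1 of that length in PORI rpt2a and 8 and 9 in PORI. TT8 passed without a low-count filter (edgeR adjusted p = 0.00375), where 669 of 29232 genes were called. It passed with the replicate block (edgeR adjusted p = 0.0231), where 596 of 8110 were called. Without structural RNA and organelle genes it passed too (edgeR adjusted p = 0.0385), where 504 of 7429 were called. It did not pass with DESeq2 size factors (edgeR adjusted p = 0.0813) or scaled to all counts (edgeR adjusted p = 0.245). With 1 library left out its log2 fold change ran from -3.07 to -2.22. DESeq2 gave it no adjusted p. CHS, the chalcone synthase gene at the entry to the pathway, had 6 and 8 counts in PORI rpt2a and 11 and 12 in PORI (log2 fold change -0.18 ± 0.73, SE; edgeR adjusted p = 0.899), and turned to 0.74 without PORI rpt2a replicate 1. TTG1, which encodes a WD40 partner of the same complex, had 7 and 3 counts in PORI rpt2a and 3 and 8 in PORI. FLS1, a flavonol synthase gene, had 3 and 1 in PORI rpt2a and 5 and 2 in PORI.

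The genes that make miRNAs and trans-acting siRNAs gave few small RNA reads, and 2 of 10 could be tested, with 0 called by edgeR. Among all 38194 gene rows, 8110 could be tested, so low counts are not particular to this list. Of its 2 tested genes, 1 was at an unadjusted p under 0.05, as were 1868 of all 8110 genes tested. DCL1, which processes miRNA precursors, had 29 and 19 counts in PORI rpt2a and 72 and 95 in PORI (log2 fold change -1.33 ± 0.50, SE; edgeR adjusted p = 0.187), or -0.80 without PORI replicate 2, and it was called without PORI rpt2a replicate 2 (adjusted p = 0.0431), where 1172 of 8110 genes were called, 14.5%. AGO1, whose protein carries miR828, had 55 and 11 in PORI rpt2a and 65 and 46 in PORI (-0.50 ± 0.43, SE; edgeR adjusted p = 0.530), or -0.17 and -1.04 without PORI rpt2a replicates 2 and 1. Reads of 21 nt were 20 and 14 of the DCL1 counts in PORI rpt2a and 57 and 84 in PORI. The MIR gene row AT1G01046, close in locus number to DCL1 (AT1G01040), had 151 counts pooled over the libraries, 92.7% of them 21 nt. Whether its reads are also counted in the DCL1 row was not tested. RDR6 had 2 and 0 counts in PORI rpt2a and 3 and 3 in PORI, and SGS3 had 3 and 1 in PORI rpt2a and 2 and 4 in PORI. DCL4 had 9 and 2 in PORI rpt2a and 6 and 8 in PORI. SE, a partner of DCL1, had 3 and 1 in PORI rpt2a and 5 and 8 in PORI.

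Of the other miRNAs that target MYB transcripts, miR159a, miR159b-3p, miR159c, miR319a/b and miR319c had more reads than miR858a, and miR159b-5p had 2 and 5 counts in PORI rpt2a and 5 and 7 in PORI. Of the 9 rows of miR159, miR319, miR828 and miR858, 6 could be tested, all 6 with a log2 fold change above 0, at a median of 0.52 against -0.19 over all miRNAs. None was called by edgeR, with 0 at an unadjusted p under 0.05, and DESeq2 called 0, with 1 at an unadjusted p under 0.05. Scaled to all counts, 2 of the 6 were above 0 and the median was -0.17. miR319a/b had 2712 and 3881 counts in PORI rpt2a and 3329 and 2299 in PORI, a log2 fold change of 1.44 ± 0.76 (SE; edgeR adjusted p = 0.849), or 0.39 without PORI rpt2a replicate 2. It was called without PORI rpt2a replicate 1 (2.04, adjusted p = 0.0365), where 31 of 111 miRNAs were called, 27.9%. miR319c, which like miR319a/b acts mainly on TCP and in part on MYB transcripts, was at 1.15 ± 0.78 (SE), or -0.063 without PORI rpt2a replicate 2 and 1.801 without replicate 1 (edgeR adjusted p = 0.0373, in the same fit). miR159a, the regulator of GAMYB-like transcripts, was at 0.14 ± 0.81, miR159b-3p at 0.096 ± 0.73 and miR159c at 0.36 ± 0.72 (SE), and without PORI rpt2a replicate 1 these 3 turned to -1.37, -0.88 and -0.38.

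The triggers of the other TAS loci were better counted than miR828. miR173-5p, which cuts TAS1 and TAS2 transcripts, had 61 and 4 counts in PORI rpt2a and 131 and 78 in PORI (log2 fold change -1.07 ± 0.94, SE; edgeR adjusted p = 0.870), or -0.32 without PORI rpt2a replicate 2 and -3.10 without replicate 1, where it passed (adjusted p = 0.0388) among the 27.9% of miRNAs called in that fit. miR390a/b-5p, which acts on TAS3 transcripts, had 44 and 31 in PORI rpt2a and 90 and 96 in PORI (-0.35 ± 0.77, SE; edgeR adjusted p = 0.873), or 0.17 without PORI replicate 2. The opposite strands miR390a-3p and miR390b-3p were at -0.70 ± 0.69 and 0.54 ± 0.81 (SE), or -0.0024 without PORI replicate 2 and -0.075 without PORI rpt2a replicate 2. Of 22 rows of miRNA families listed as triggers of secondary siRNAs 15 could be tested, 13 below 0 and 2 above, with a median of -0.52. Over all 111 miRNAs tested 62 were below 0, at a median of -0.19. In DESeq2 11 of the 15 were below 0. Scaled to all counts all 15 were below 0, at a median of -1.24 against -0.85 over all miRNAs. None of the 15 was called by edgeR, with 0 at an unadjusted p under 0.05, and DESeq2 called 0. The most counted of these rows were miR161.1, with 30614 and 10766 counts in PORI rpt2a and 45338 and 35210 in PORI, and miR403-3p, with 3536 and 205 in PORI rpt2a and 5678 and 3438 in PORI.

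Across the 4 libraries the gene rows most like TAS4 in centred log2 CPM, out of 8109, were MIR159b, ATSPS4F (AT4G10120), AT2G40310, AT1G76670 and AT2G11440, at distances of 0.0262 to 0.0543. Being picked by this distance, each shared with TAS4 its lowest value in PORI rpt2a replicate 2. ATSPS4F, AT1G76670 and AT2G11440 had only 39, 38 and 38 counts in all, and 0.502 CPM each in that library. MIR159b had 6243 and 2684 CPM in PORI rpt2a, against 6361 and 5626 CPM in PORI. Among 110 miRNAs those nearest to miR858a were miR847, miR390b-3p, miR5642a/b, miR166a/b-5p and miR3932b-5p, at distances of 0.407 to 0.454, and each was highest in PORI rpt2a replicate 2. In read lengths the miRNAs nearest to miR858a, among 28 of similar count, were miR169f-3p, miR823, miR395a/d/e, miR164a/b-5p and miR846-3p, at distances of 0.0595 to 0.133, with 22 nt shares of 0.532% to 6.87% against 5.80% to 19.3% in the libraries of miR858a. Such likeness over 4 libraries is a description, since all rows share the libraries and their depth. That the nearest rows were lowest or highest in the same library as the member follows from how they were picked.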

How the data were processed

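Small RNAs of seedlings were sequenced in 4 libraries, grouped by the sample titles. The authors deposited raw whole-number counts per feature and read length, 3 tables per library. Per the submitters' processing notes the tools were cutadapt 1.9.1, FastQC 0.11.2, CASAVA 1.8.2, DESeq2 and HTSeq, and the genome build was TAIR10. The aligner, annotation release, strand use and handling of reads that map to several places are not given in the sources used here, so reads shared by similar or overlapping loci may be counted at any of them. The gene and miRNA tables both hold reads of MIR genes. Names, classes and gene order came from a TAIR10.1 gene table (34001 of 38194 rows matched by locus tag), and no coordinates or sequences were used.

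Counts were tested in whole tables with edgeR 4.0.16 (R 4.3.3; quasi-likelihood test, group as the only term, TMM, filterByExpr with minimum count 10 and minimum total 15, Benjamini-Hochberg adjustment over the table at 0.05), tested on simulated data first. A standard error is the log2 fold change, without its sign, divided by the square root of F. Shares carry 95% Wilson intervals. DESeq2 1.42.0, other size factors and filters, a replicate block and each library left out (with the same features tested) were alternatives. Numbers were summarised with pandas 2.3.3, scipy 1.17.1 and numpy 2.4.6 under Python 3.11.15, and drawn with matplotlib 3.10.9. Named genes were the members, TAS loci, MYB targets with at least 10 counts, miR159, miR319, miR173 and miR390 rows with at least 50, the rows beside TAS4, the most counted list members (miR168 rows are not described) and the 5 rows most alike by each measure, plus MYB and silencing genes with lower counts, added for their roles. For the distance across libraries 1 CPM was added before taking log2. Members and lists were chosen with earlier results of these data known.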

Additional observations from a re-analysis of the deposited data

How the results depend on the processing

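No log2 fold change of TAS4 or miR858a passed with all 4 libraries in any alternative. With 1 library left out, TAS4 ranged from -1.19 to 0.050 over all lengths, from -2.07 to -0.34 at 21 nt and from -3.57 to -0.86 at 22 nt, and passed only without PORI rpt2a replicate 1 (adjusted p = 0.0149, 0.00297 and 0.000193, within 0.0149 to 0.914, 0.00297 to 0.799 and 0.000193 to 0.646 over the alternatives). miR858a ranged from 0.21 to 1.25 over all lengths and from -0.22 to 1.46 at 21 nt, and was at -0.043 and -0.21 when scaled to all counts. The TAS4 share of 21 nt reads differed by -1.24 to 4.67 percentage points, of 22 nt reads by -7.13 to 0.594. Of 12 tested genes of the lists 0 passed, against 1 without a low-count filter, 1 with the replicate block and 1 without structural RNA and organelle genes (TT8 each time), and 0 to 6 with 1 library left out. Scaled to all counts, the MIR858a row turned to -0.018 (-0.0030 at a minimum count of 50), miR159c to -0.30, miR159a to -0.50, miR159b-3p to -0.56 and miR390b-3p to -0.17. With 1 library left out the MIR858a row ranged from -0.40 to 0.83, CHS from -1.10 to 0.74, miR159c from -0.38 to 0.84, miR159a from -1.37 to 0.86, miR159b-3p from -0.88 to 0.67, miR319c from -0.063 to 1.801, miR390a/b-5p from -0.68 to 0.17 and miR390b-3p from -0.075 to 1.49. The causes were not tested.

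Same-numbered libraries deviated together (correlation 0.158 over genes and 0.271 over miRNAs for all lengths, 0.210 and 0.407 at 21 nt), and with 2 pairs the numbers are not shown to pair them. With the replicate number as a block TAS4 was at -0.57, -1.25 and -2.01 (all lengths, 21 nt, 22 nt), miR858a at 0.66 and 0.25 (all lengths, 21 nt), miR159a at -0.25 and miR159b-3p at -0.10, and genes called over the table numbered 596 against 2. Over the other settings that count ran from 0 at a minimum count of 50 to 2155 without PORI rpt2a replicate 1. It was 669 without a low-count filter, 589 in DESeq2 (7.26%), 504 without structural RNA and organelle genes, 12 and 19 without PORI replicates 1 and 2, and 1172 without PORI rpt2a replicate 2. Without a filter the 24 nt reads of TAS4 were at -1.37 ± 0.98 (SE; edgeR adjusted p = 0.779). Depth limits miR828, miR858b and the MYB targets, which were given no test.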

Other observations

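Besides the MIR genes, 7 other rows had a 21 nt share at or above that of TAS4 (81.8%) among gene rows with at least 100 counts. TAS1C was at 93.8% and TAS1A at 91.5%. AGO2 (AT1G31280), which encodes an antiviral ARGONAUTE and whose transcript miR403 targets, had 86.8% of 152 reads at 21 nt. AT5G14550 had 97.9% of 17951 reads, AT2G47020 92.0% of 34206, AT1G08765 93.3% of 15368 and AT3G57710 92.6% of 242 at that length. The AT1G08765 row was nearly equal to that of the MIR gene AT1G01183, which had 15360 counts. Reads of 21 nt were 93.3% in both, and reads of 22 nt 3.01% in both. It is thus hardly a row apart from the MIR genes. Whether reads of overlapping MIR genes enter these rows was not tested read by read.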
